A study of Mus musculus with 20 samples.

Results

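Among the 39768 strongest Oct4 peaks of F9 cells treated with retinoic acid (RA), 12687 (31.9%) overlapped both an Oct4 peak of untreated F9 cells and a Sox17 peak of RA-treated F9 cells. They were chosen by measured values: the score of the Oct4 F9+RA list, and overlap by at least 1 bp with any peak of the whole Oct4 F9 list and of the whole Sox17 F9+RA list. They are called kept sites with Sox17. A further 19265 of the 39768 peaks overlapped an Oct4 F9 peak and no Sox17 peak, and are called kept sites without Sox17. The remaining peaks had no Oct4 peak in untreated F9 cells, and 2780 of them had Sox17 while 5036 did not. Sox17 thus lay at 39.7% of the 31952 kept sites and at 35.6% of the sites that were not in the F9 list.

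Oct4 (Pou5f1) is a POU-family transcription factor that pairs with Sox proteins on composite DNA elements. In pluripotent cells its partner is mostly Sox2, and together they hold the pluripotency network in place. Sox17, of the same HMG-box family as Sox2, is a marker and regulator of the primitive endoderm, the extraembryonic lineage that forms beside the epiblast. The choice between these partners is known to depend on a residue of the HMG box, at the surface that meets Oct4, which is lysine in Sox2 and glutamate in Sox17. Exchange of this residue gives the forms Sox2KE and Sox17EK.

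The series used chromatin immunoprecipitation and sequencing in mouse cells, and 18 libraries with a peak list were analysed. F9 is an embryonal carcinoma line, and was used undifferentiated or after 1 µM RA, which turns it into cells resembling primitive endoderm; Oct4 was mapped in both states and Sox17 after RA, with 1 library each. KH2 embryonic stem (ES) cells are a mouse line with doxycycline-inducible transgenes, here Sox2, Sox2KE, Sox17EK or Sox17 with a V5 tag, each overexpressed under 1 µg/ml doxycycline in undifferentiated cells. There were 2 libraries of the Sox protein (A and B) for each of the 4 lines, and 2 of Oct4, or 1 for the Sox17 line. All 4 ES lines thus carried an overexpressed tagged Sox protein in addition to the Sox2 that ES cells make themselves, and no uninduced ES line was analysed here. The labels give neither the duration of RA nor the number of clones per line. The identity of the F9+RA cells was not checked, since marker expression was not measured in these libraries.

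Libraries differed in ways that touch these counts. The ES lists held between 5836 peaks (Sox17 replicate B) and 71693 peaks (Sox2KE replicate B), so the 5836 strongest peaks of each were compared, here called equal length. The Sox17 lists of ES cells stood apart: at equal length their lowest scores were 75.41 in replicate A and 50.03 in replicate B, against 127.7 to 974.7 in the others, and their median peak widths were 970 and 873 bp, against 312 to 680 bp in the other Sox lists. The score is the authors' own number for each peak and ranks peaks only within a list. The Sox17 ES libraries name the Sox17 antibody beside V5, the same Sox17 antibody as the Sox17 F9+RA library, whereas Sox2, Sox2KE and Sox17EK libraries name V5 alone. Oct4 libraries of ES cells name V5 beside Oct4, so a peak there may be of Oct4 or of the tagged Sox protein, which cannot be told apart.

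Kept sites with Sox17 were concentrated among the strong Oct4 peaks of F9+RA cells. They made up 68.2% of the 1000 strongest peaks (682 sites) and 10.5% of the 1000 weakest within the 39768. Their Oct4 peaks had a median score of 321 after RA and 292 before it, and a median width of 909 bp after RA and 1150 bp before it. Kept sites without Sox17 had median Oct4 scores of 182 and 217, and a median width of 601 bp after RA. The midpoints of the Oct4 F9+RA and F9 peaks lay a median of 96 bp apart, and 70.4% lay within 200 bp. The Sox17 peaks at these sites were narrower, with a median of 555 bp, and at 65.8% of sites their midpoints lay within 200 bp of those of Oct4. A peak could cover more than 1 peak of another list: 487 sites covered 2 or more Oct4 F9 peaks and 1503 covered 2 or more Sox17 peaks. In all, the sites took in 14003 Sox17 peaks, which is 35.2% of the Sox17 list. Their median Sox17 score was 97.0, against 112 at the 2780 Sox17 sites that had no Oct4 peak in untreated cells.

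At most kept sites with Sox17, Oct4 stood higher in its list after RA than before. The median rank, with 1 the strongest, was 11100 among the 84196 Oct4 F9+RA peaks and 13459 among the 64582 F9 peaks. The rank in F9 minus the rank in F9+RA, positive where the site moved up with RA, had a median of 2053 (95% interval 1899 to 2179) and quartiles of -1946 and 7918. In all, 8279 sites moved up, which is 65.3% (exact Clopper-Pearson 95% interval 64.4 to 66.1). At kept sites without Sox17 the median was -644 (quartiles -8728 and 8807) and 46.9% moved up. Ranks after RA were part of the choice of sites, there was 1 library per state, and sites are not replicates of a treatment, so these values are descriptions with no test, and the intervals cover counting error only.

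Sites with Sox17 moved mainly in 1 direction, and sites without it in both. Among those with Sox17, 2578 (20.3%) moved up by 10000 ranks or more and 1086 (8.56%) moved down by as much. Among those without it, 23.1% and 22.2% did so. Over the sites with Sox17, the Oct4 rank before RA and the Oct4 rank after RA had a Spearman correlation of 0.63 (n = 12687), and over those without it 0.50 (n = 19265). These correlations are across sites, which are not replicates, and the points share both libraries and the cell line.

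**Figure D1:**
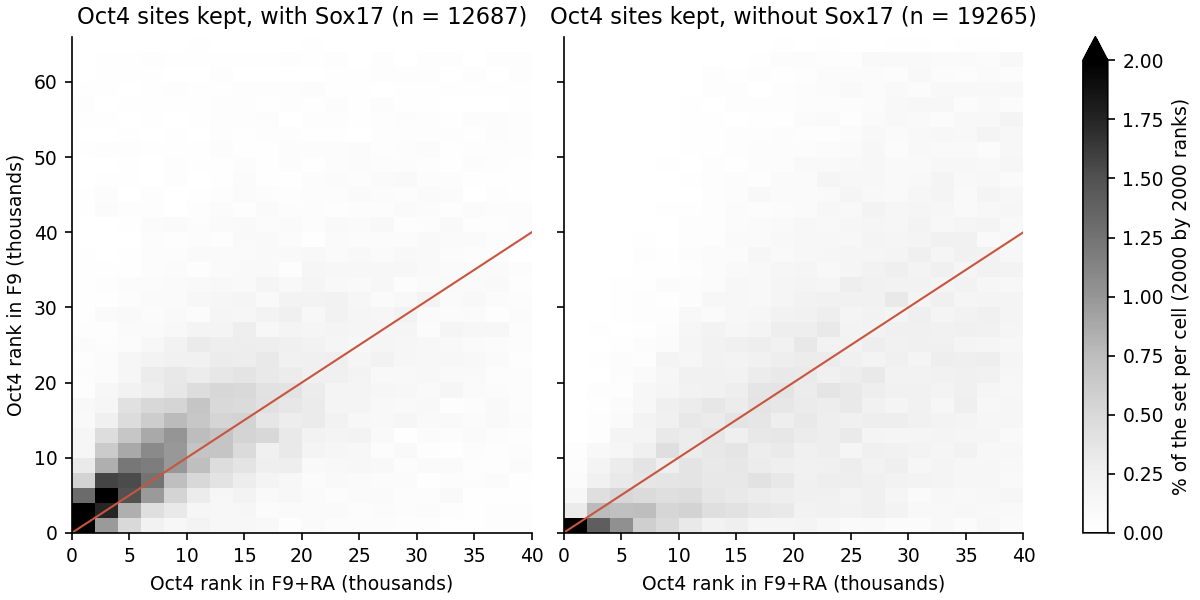
Oct4 rank of each kept site after RA (x axis) and before RA (y axis), both in units of 1000 ranks, with the shade giving the percent of the set in each cell of 2000 by 2000 ranks and the line marking equal rank. Sites with Sox17 (left, 12687) gather at strong ranks, mostly above the line, where the site ranks higher after RA, while sites without Sox17 (right, 19265) spread to both sides of it.

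The gap between the sets was widest at the strongest Oct4 peaks. Among F9+RA ranks 1 to 10000, 79.6% of 5851 sites with Sox17 moved up (median change 2652), against 48.0% of 3578 sites without it (median -123). Among ranks 10001 to 20000 the shares were 60.9% and 53.1%. Among ranks 20001 to 30000 they were 49.0% and 47.7%. Among ranks 30001 to 39768 they turned round, at 34.8% and 38.9%. By construction, a site near rank 39768 has more F9 ranks above it than below it, as the F9 list held 64582 peaks. The part of this in the turn was not tested.

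The direction for the sites without Sox17 depended on how rank was scaled, while that of the sites with Sox17 did not in the alternatives run. With rank as a percent of the list, the median change was 6.50 percentage points with Sox17 (77.7% moved up) and 4.34 without it (59.8%). Where the F9 peak also had to lie within the first 39768 ranks, the medians were 1432 and -2771 ranks, with 62.2% and 36.5% moving up. Where only the strongest F9+RA peak of each F9 peak was kept, the medians were 2512 and -60 ranks, with 68.8% of 11924 and 49.6% of 18062 moving up. Within the weaker rank ranges, scaling turned the direction of the sites with Sox17 too. At F9+RA ranks 20001 to 30000 their median was -288 ranks but 8.39 percentage points of the list. At ranks 30001 to 39768 it was -6666 ranks but 1.75 points. Sites without Sox17 turned in these 2 ranges as well.

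The share of sites that moved up was higher where the Sox17 peak was stronger, but the share of large moves up was not. In 4 equal groups of the sites by Sox17 score, from strongest to weakest, 75.3%, 65.3%, 62.6% and 57.8% moved up. Moves up of 10000 ranks or more were made by 18.2%, 17.2%, 22.9% and 23.0%, and the median change as a percent of the list was 5.55, 6.30, 7.72 and 7.38 points. The median Oct4 rank after RA was 5512, 10551, 13607.5 and 15991.8 in the same order, and before RA it was 8729, 12878.5, 15875 and 17363. Sites with stronger Sox17 therefore had stronger Oct4 in both states. Over the 12687 sites, Sox17 rank had a Spearman correlation of 0.38 with Oct4 rank after RA and of 0.25 with Oct4 rank before it. The points share the 3 libraries, all from 1 cell line, and the Sox17 and later Oct4 libraries share the treatment.

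The regions named below are in build mm9, and each stands for a pattern. First are 5 sites at the top of both Oct4 lists by mean rank. Many of the highest scores are tied at 3100: 28 sites shared the mean rank of the last 2 of these 5, which were taken from the tie by their Sox17 score. The site on chromosome 17 at 35640606 to 35643364 had Oct4 scores of 3100 in both F9 libraries and a Sox17 score of 3100, and a peak in all 15 ES lists. Its ES Sox scores were 1270 and 974 for Sox2, 2568 and 1829 for Sox17EK, 461 and 3100 for Sox2KE, and 826 and 357 for Sox17. The site on chromosome 6 at 122713792 to 122715706, with Oct4 scores of 3100 and a Sox17 score of 1407, was also in all 15 ES lists, as was that on chromosome 14 at 99738718 to 99740426, whose Sox17 score was 309. The other two were strong in Oct4 and uneven in Sox. On chromosome 17 at 10272674 to 10273698 the Sox17 score in F9+RA cells was 53.0, near the lower end of the list. On chromosome 10 at 66546283 to 66547092 it was 627, and the Sox2KE score was 80.9 in replicate B with no peak in replicate A.

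The sites that moved up the most were barely above the peak threshold before RA. The rule largely sets this, since the largest moves up need a rank near the end of the F9 list. On chromosome 5 at 128771355 to 128772338 the Oct4 score was 50.7 before RA and 745 after it, a move from rank 63925.5 to rank 2533, and all 8 ES Sox lists had a peak there (61.6 to 427). On chromosome 14 at 73246821 to 73247822 it was 54.6 before and 1803 after, with a Sox17 score of 538. ES Sox lists divided at the other sites of this kind. On chromosome 6 at 134900600 to 134902029 (Oct4 50.7, then 623) the Sox2KE scores were 1105 and 2943 and the Sox2 scores 468 and 304, while no Sox17 or Sox17EK list had a peak. On chromosome 13 at 38445311 to 38446226 (Oct4 51.0, then 536) only the 4 glutamate lists had a Sox peak, with scores of 142 and 216 for Sox2KE and 75.9 and 63.0 for Sox17. On chromosome 9 at 85379303 to 85380065 (Oct4 51.7, then 848) 6 of 8 Sox lists had one.

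All 5 of the largest moves down were parts of a wide F9 peak that held a second, stronger F9+RA peak. For example, on chromosome 14 at 99699143 to 99699536 the Oct4 score was 3024 before RA and 101 after it, but the same F9 peak also held an F9+RA peak of 3100. On chromosome 12 at 100538910 to 100539395 the scores were 3100 and 105, and the neighbouring peak scored 2934. The other three lay on chromosome 15 at 55097689 to 55098060, on chromosome 10 at 36694589 to 36695078 and on chromosome 12 at 87850182 to 87850875, with neighbours of 1197, 1229 and 595. Such splitting touched 763 sites with Sox17 (6.01%) and 1203 without it (6.24%). Among sites that moved down by 10000 ranks or more, it touched 432 of 1086 with Sox17 (39.8%) and 893 of 4275 without it (20.9%). Without split peaks, a choice made after the values were seen, the largest moves down were smaller. On chromosome 3 at 121280590 to 121281279 Oct4 went from 594 to 104, on chromosome 4 at 98397841 to 98398394 from 512 to 106, and on chromosome 13 at 64575432 to 64575998 from 450 to 103. The last 2 had no ES Sox peak, and the chromosome 3 site had a peak in 4 of 8 ES Sox lists.

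The threshold that ended the set lay at an Oct4 F9+RA score of 100.15. The 3 sites just inside it began on chromosome 9 at 107640314, on chromosome 13 at 21253099 and on chromosome 9 at 45762639, with F9 scores of 129, 85.5 and 137 and Sox17 scores of 131, 85.7 and 78.8. The 3 peaks just outside it that met both overlaps began on chromosome 1 at 34496393, on chromosome 6 at 142736643 and on chromosome 8 at 87183582, with F9 scores of 111, 121 and 888 and Sox17 scores of 86.9, 61.3 and 161. The values of both groups of 3 overlapped, apart from the F9 score of 888, where the F9 peak also held a stronger F9+RA peak of 625.

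The ES Sox lists were not used to choose the sites, and they divided by residue. The glutamate proteins Sox17 and Sox2KE held more of the kept sites with Sox17 than of those without, and the lysine proteins Sox2 and Sox17EK held fewer. A list is said to hold a site where 1 of its peaks overlaps it by at least 1 bp. At equal length, Sox17 held 24.0% (A, 3046 sites) and 17.1% (B, 2170 sites) of the sites with Sox17, against 9.78% and 8.54% of those without it and 13.0% and 10.3% of all 39768 peaks. Sox2KE held 9.69% (A) and 19.5% (B), against 7.36% and 8.29% without Sox17 and 7.27% and 11.0% of all peaks. The Sox2KE replicates thus lay far apart, and replicate A was close to the highest lysine list, Sox17EK replicate A at 9.29%.

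Sox2 held 7.12% (A) and 8.30% (B) of the sites with Sox17, against 11.7% and 12.8% of those without it and 8.27% and 9.16% of all peaks. Sox17EK held 9.29% (A) and 8.56% (B), against 16.2% and 12.6% without Sox17 and 11.0% and 9.04% of all peaks. In all 4 lysine lists the share was lower with Sox17 than without, and in all 4 glutamate lists it was higher. The widest exact 95% interval of these shares ran from 23.3% to 24.8% (Sox17 replicate A), and such intervals cover counting error only.

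**Figure D2:**
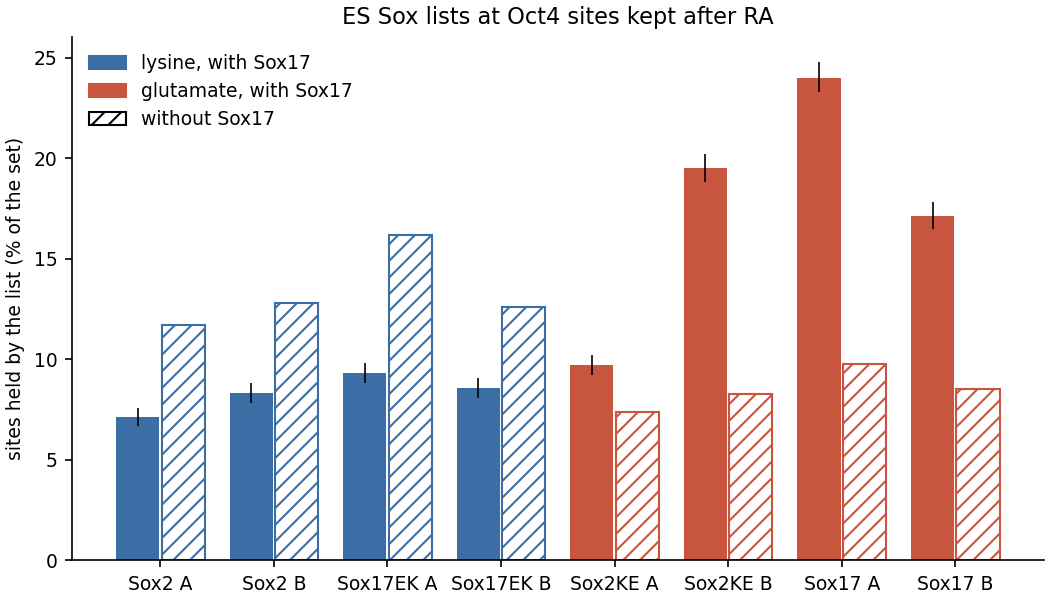
Percent of kept sites held by the 5836 strongest peaks of each ES Sox list, with Sox17 in F9+RA cells (filled, 12687 sites, bars are exact 95% counting intervals) and without (hatched, 19265 sites), for lysine lists in blue and glutamate lists in red. Filled bars stand below hatched ones in all 4 lysine lists and above them in all 4 glutamate lists, with Sox17 replicate A the highest at 24.0% and Sox2KE replicate A the lowest of the glutamate lists at 9.69%.

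Over libraries, the glutamate lists held 17.6% ± 5.98 and the lysine lists 8.32% ± 0.904 of the sites with Sox17 (SD, n = 4 each). The difference of 9.25 percentage points had an exact two-sided permutation p of 0.0286, the lowest value open to groups of 4 libraries, and every glutamate list stood above every lysine list. Adjusted for the 5 planned tests by the Benjamini-Hochberg method, the exact permutation p was 0.0714, so the difference failed the correction. The tests by residue, here and below, took libraries as units, though libraries of the same line are not fully independent. Each residue had 2 lines, and no test by residue was run over lines. At sites without Sox17 the order was the other way, at 8.49% ± 0.998 for glutamate and 13.3% ± 1.97 for lysine lists (SD, n = 4 each).

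The log2 ratio of the share with Sox17 over the share without, taken within each list, was 0.98 ± 0.41 for glutamate and -0.68 ± 0.10 for lysine lists (SD, n = 4 each). By list it was -0.72 and -0.63 for Sox2, -0.80 and -0.56 for Sox17EK, 0.40 and 1.23 for Sox2KE, and 1.30 and 1.00 for Sox17. The difference of 1.66 had an exact two-sided permutation p of 0.0286, again the smallest possible, and 0.0714 after adjustment, so it failed the correction as well. The groups did not overlap. Sites with Sox17 had wider Oct4 peaks, and a wider interval can overlap more peaks. With midpoints within 200 bp in place of overlap the log2 ratio difference was 1.60 (exact two-sided permutation p = 0.0286). In the same setting the difference of shares fell from 9.25 to 5.31 percentage points (exact two-sided permutation p = 0.0571). The part of peak width was not tested.

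Because the Sox17 ES libraries share an antibody with the library that chose the sites, the lists made with V5 alone were also compared. Sox2KE stood above Sox2 and Sox17EK by 6.27 percentage points in share and by 1.49 in log2 ratio, each with an exact two-sided permutation p of 0.133, the smallest that 2 against 4 libraries can give. Without Sox2KE, the Sox17 lists stood above the lysine lists by 12.2 points and by 1.83 in log2 ratio (exact two-sided permutation p = 0.133 for each). Both glutamate proteins thus had the same direction on their own. Each residue is represented by 2 proteins, each expressed in its own line, and effects of the line cannot be told apart from those of the residue.

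Over all 8 ES Sox lists together, no difference between sites with and without Sox17 passed the test. The mean share was 2.03 percentage points higher with Sox17 than without, with 4 of 8 lists higher (exact two-sided sign-flip permutation p = 0.523, adjusted 0.523). The direction turned to -6.37 points among the 10000 strongest Oct4 F9+RA peaks (exact permutation p = 0.273) and to -1.10 without the Sox17 lists (exact permutation p = 0.719), and the value was 0.282 points without Sox17 replicate A alone. It was larger with whole ES lists, at 8.67 points (exact permutation p = 0.117), with scores of at least 100, at 4.35 (exact permutation p = 0.281), and with all Oct4 F9+RA peaks, at 3.73 (exact permutation p = 0.203).

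The pattern varied with the strength of Oct4 before RA. Among Oct4 F9 ranks 1 to 5000, lysine lists held 24.6% ± 3.67 of 2343 sites with Sox17 and 41.2% ± 7.38 of 3458 sites without it, and glutamate lists held 33.4% ± 10.0 and 17.7% ± 2.74 (SD, n = 4 lists each). Among F9 ranks 5001 to 10000, lysine lists held 6.90% ± 1.01 and 16.3% ± 2.63, and glutamate lists 20.4% ± 8.48 and 10.2% ± 1.17. At the weakest F9 peaks, ranks 40001 to 64582, lysine lists held 3.54% ± 0.638 of 1016 sites with Sox17 and 2.64% ± 0.393 of 3120 without, while glutamate lists held 9.67% ± 1.89 and 3.37% ± 0.431. The lower share of lysine lists at sites with Sox17 was thus seen at strong F9 peaks and no longer at the weakest, whereas glutamate lists had the higher mean in each of the 5 rank ranges. No test was run within rank ranges.

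**Figure D3:**
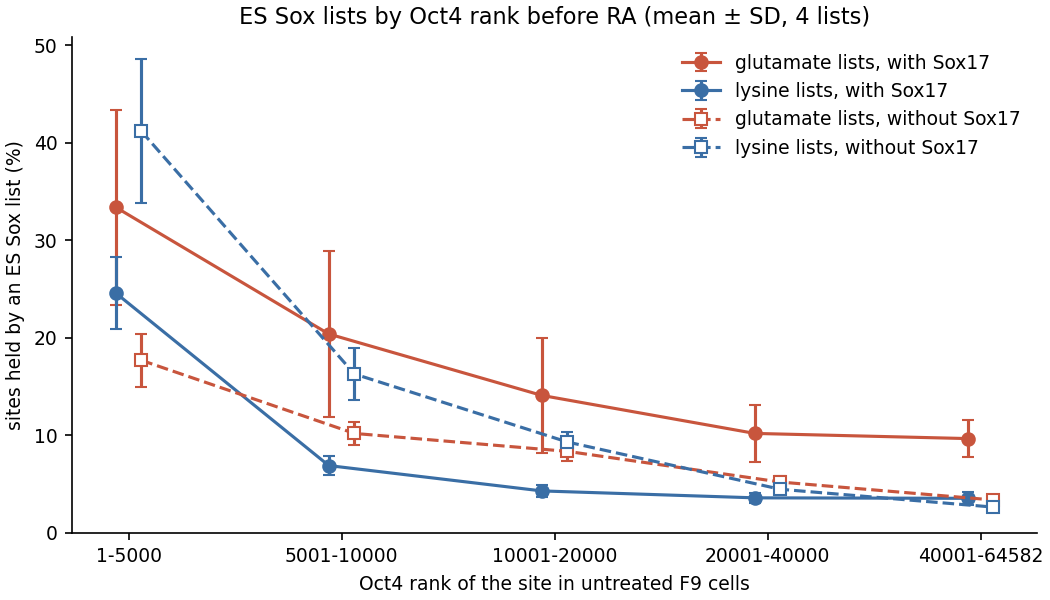
Mean percent of kept sites held by the 4 glutamate (red) and 4 lysine (blue) ES Sox lists at equal length, with bars of 1 SD over lists, by the Oct4 rank of the site in untreated F9 cells (x axis), for sites with Sox17 (filled, solid) and without (open, dashed). At ranks 1 to 5000 the lysine lists held 41.2% of sites without Sox17 and 24.6% of those with it, while glutamate lists lay higher with Sox17 than without in every rank range.

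Sox17 strength in F9+RA cells went with the glutamate lists among the sites themselves. From the strongest to the weakest of the 4 groups by Sox17 score, glutamate lists held 28.3% ± 10.3, 17.6% ± 6.67, 13.2% ± 4.08 and 11.1% ± 2.96 (SD, n = 4 lists), and lysine lists 11.2% ± 1.20, 7.05% ± 0.826, 7.46% ± 0.686 and 7.53% ± 1.07. The lysine lists did not decline after the second group. Since Oct4 was also stronger where Sox17 was strong, a separate part of Sox17 and Oct4 in this was not tested.

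Sites that moved up with RA and sites that moved down were also described by list, an addition made once the data had been seen. Sox2 held 5.85% (A) and 7.15% (B) of the 8279 sites that moved up, against 9.51% and 10.5% of the 4407 that moved down. Sox17EK held 8.01% and 7.79%, against 11.7% and 9.98%. Sox17 held 25.3% and 18.1%, against 21.5% and 15.3%. Sox2KE was divided, with 9.35% against 10.3% in replicate A and 20.0% against 18.6% in replicate B. The log2 ratio of the share at sites that moved up over the share at those that moved down was 0.11 ± 0.18 for glutamate and -0.54 ± 0.14 for lysine lists (SD, n = 4 each). No test is given, since the direction of the move comes from the Oct4 ranks that chose the sites. The median F9 rank was 9613 at sites that moved down and 16381 at those that moved up, and the shares of the lysine lists varied with F9 rank as given above. The part of F9 rank in these ratios was not tested.

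With whole lists in place of equal lengths the shares rose with list length. Sox2KE held 46.7% (A) and 85.7% (B) of the sites with Sox17, against 30.2% and 55.4% of those without it and 32.0% and 59.9% of all 39768 peaks. Sox17 held 35.9% and 17.1%, against 16.4% and 8.54% without Sox17 and 20.5% and 10.3% of all peaks. Sox17EK held 41.6% and 28.3%, against 41.5% and 28.6% without Sox17 and 34.6% and 23.9% of all peaks. Sox2 held 32.8% and 29.7%, differing from the sites without Sox17 by -2.25 and -2.99 points, against 29.0% and 26.6% of all peaks. The lysine lists thus differed little between the sets when all their peaks counted, and their log2 ratios lay between -0.14 and 0.00. The difference between residues in this log2 ratio was 0.91 (exact two-sided permutation p = 0.0286), while the plain difference of shares was 13.3 points in lists of very unequal length (exact two-sided permutation p = 0.486).

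In whole lists, 1191 of the 12687 sites (9.39%) had a peak in no ES Sox list, against 25.5% of sites without Sox17 and 27.9% of all 39768 peaks. A peak in all 8 lists was found at 687 sites (5.41%), against 3.09% without Sox17 and 3.27% of all peaks. Sites in no ES Sox list were weak ones, with a median Oct4 rank after RA of 20757 and a median Sox17 score of 75.5. Sites in all 8 lists had medians of 3232 and 145. A peak in 1 to 3 of the 8 lists was the commonest state, with 2345, 2319 and 1878 sites. These were 18.5%, 18.3% and 14.8% of the sites with Sox17, against 18.1%, 14.7% and 10.5% of those without it. The share in 1 list was thus close in both sets.

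Some classes named by residue were small and unequal in size. At least 1 glutamate list and no lysine list had a peak at 3822 sites with Sox17 (30.1%), against 17.6% of those without it and 22.3% of all peaks. At least 1 lysine list and no glutamate list had one at 376 (2.96%), against 15.3% and 9.17%. The strict classes were rarer. All 4 glutamate lists and no lysine list had a peak at 64 sites (0.504%), against 0.130% without Sox17 and 0.259% of all peaks. All 4 lysine lists and no glutamate list had one at 29 sites (0.229%), against 2.81% (541 sites) and 1.45%. Both Sox2KE lists alone had one at 682 sites (5.38%), against 3.19% and 4.20%, and both Sox17 lists with no lysine list at 218 sites (1.72%), against 0.514% and 1.10%. Lists of unequal length set the size of each class, so sizes of different classes are not comparable.

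The classes also differed in how Oct4 moved with RA, as a description with no test. Of the 218 sites with both Sox17 lists and no lysine list, 78.0% moved up, with a median change of 4806 ranks and a median Sox17 score of 137. The 1191 sites in no ES Sox list had a larger median change, 5488 ranks, with 65.4% moving up. They started from a median F9 rank of 26292. Of the 29 lysine sites, 34.5% moved up, with a median change of -428 ranks and a median Sox17 score of 67.3. The median F9 rank of these 29 was 1827, against 15095 at the 218 sites. Of the 687 sites in all 8 lists, 63.6% moved up, and the median change over all 687 was 505 ranks. Their median F9 rank was 4298. The part of F9 rank in these differences between classes was not tested.

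Examples of the Sox17 class show how far apart both Oct4 states could be. On chromosome 11 at 83683528 to 83684043 the Oct4 score was 63.9 before RA and 224 after it, with a Sox17 score of 2288 in F9+RA cells and of 526 and 432 in ES cells. Oct4 of the Sox17 line scored 295 there and no other Oct4 ES list had a peak. On chromosome 14 at 99663544 to 99664186 Oct4 went from 111 to 3087, a move from rank 34111 to rank 62, with a Sox17 score of 3100; the Sox17 ES scores were 125 and 165. On chromosome 12 at 113513718 to 113516910, a wide peak, Oct4 went from 1137 to 3100, and both Sox2KE lists (173 and 207) had a peak beside both Sox17 lists (304 and 338). The other two of this rule were on chromosome 11 at 43290869 to 43291697 and on chromosome 8 at 129139177 to 129140471, which ranked 155 and 7 after RA and 10450.5 and 27753 before it.

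The 5 named regions of the lysine class were picked by mean Oct4 rank, and those of the Sox17 class by Sox17 rank. Differences in Oct4 and Sox17 strength between the named regions thus follow in part from these rules. On chromosome X at 96347681 to 96348811 the Oct4 score was 3130 before RA and 1996 after it, the Sox17 score was 67.3, and Sox2 scored 129 and 147 and Sox17EK 308 and 260. On chromosome 5 at 111599243 to 111600051 Oct4 was 3100 and then 1785, with Sox2 scores of 370 and 370 and Sox17EK scores of 1403 and 876. On chromosome 12 at 107684258 to 107686207 it was 3100 and then 2135, and neither Oct4 list of the Sox2KE line had a peak. On chromosome 6 at 124903658 to 124904936 it was 3100 and then 2171. On chromosome 8 at 81080594 to 81081296 it was 2073 and then 2104, and this region moved up, from rank 467 to rank 196. The Sox17 scores of these 5 regions in F9+RA cells lay between 50.6 and 72.9, close to the lowest score of the list.

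**Figure D4:**
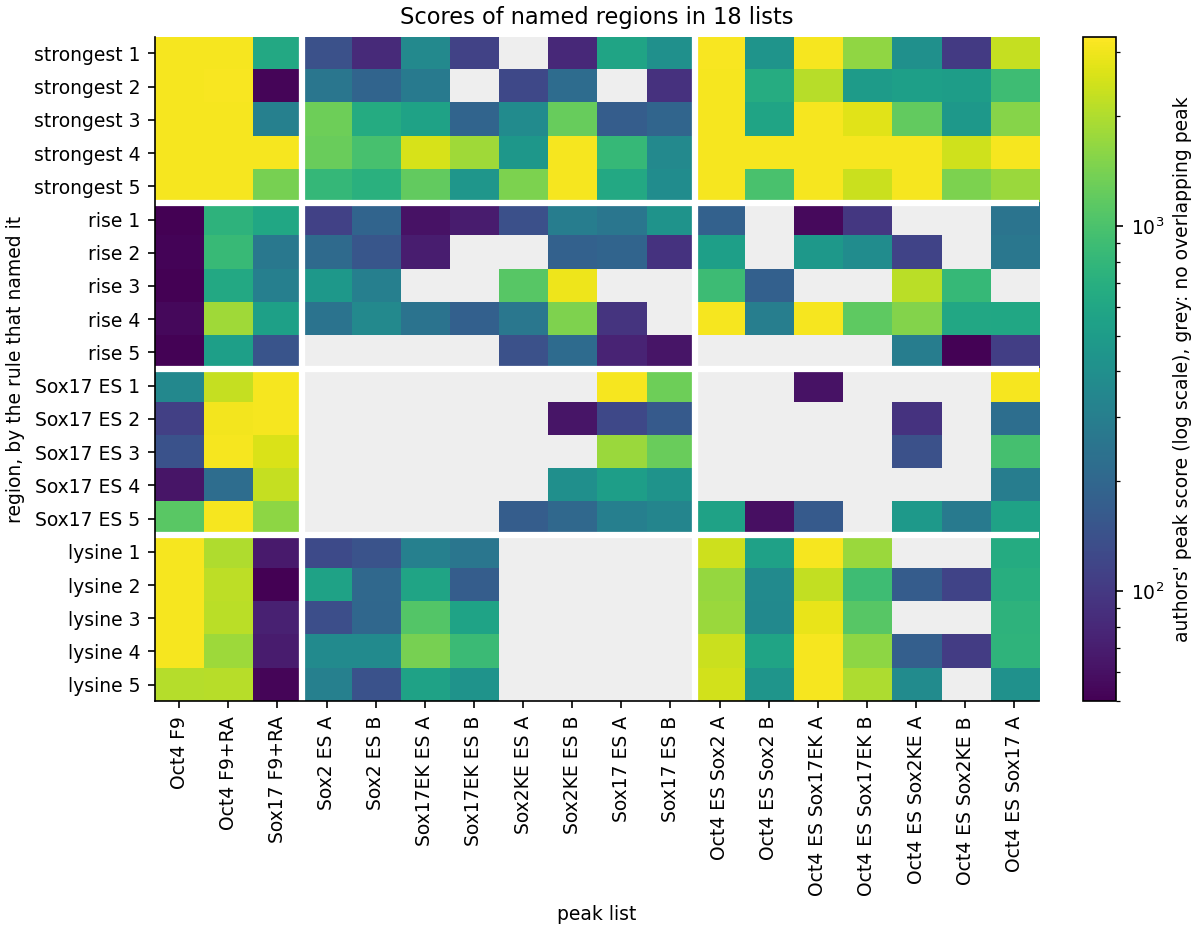
The authors' peak score (colour, log scale) in each of 18 lists (columns) for 20 named regions (one per line of the plot, in the order given by the naming rules), with grey where no peak of the list overlapped. The strongest sites have a peak in nearly every list. The sites with the largest moves up have F9 scores between 50.7 and 54.6, since the rule that named them favours weak F9 peaks. The Sox17 ES class is grey in the lysine columns by the rule that named it, and the lysine class is grey in the glutamate Sox columns for the same reason.

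Oct4 of the ES lines was divided less clearly than the Sox lists. At equal length, Oct4 of the Sox2KE line held 23.7% (A) and 30.0% (B) of the sites with Sox17, against 10.3% and 9.28% of those without it and 13.1% and 14.2% of all 39768 peaks. Oct4 of the Sox17 line held 19.9%, against 16.4% without Sox17 and 14.5% of all peaks. Oct4 of the Sox17EK line held 15.0% and 14.9%, against 19.6% and 17.6% without Sox17 and 14.4% and 13.4% of all peaks. Oct4 of the Sox2 line was split between its replicates, with 13.4% against 17.3% in A and 18.6% against 14.0% in B, where all peaks gave 12.9% and 12.8%.

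**Figure D5:**
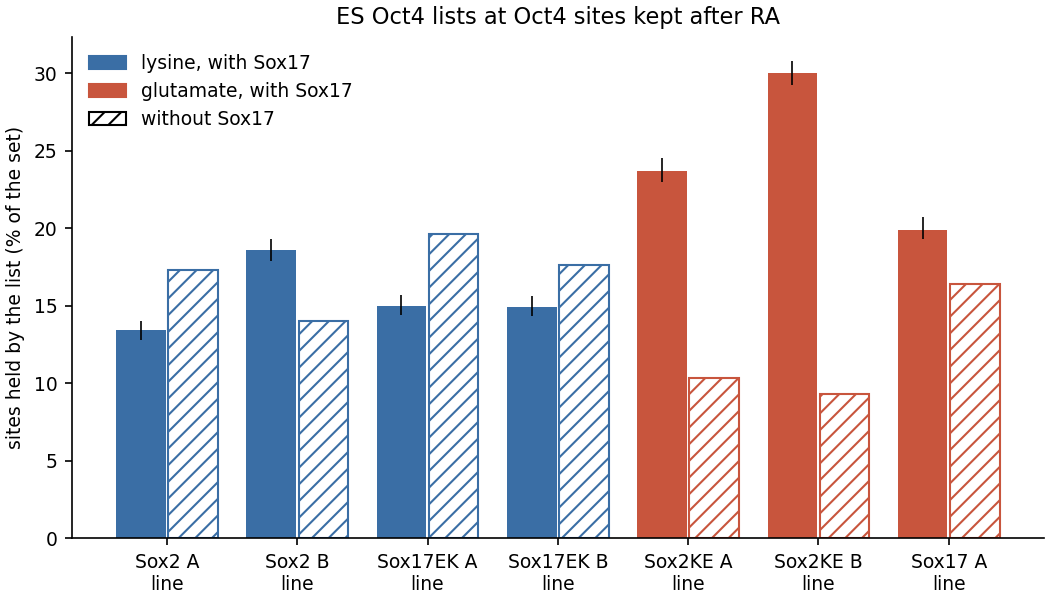
Percent of kept sites held by each Oct4 list of the ES lines at equal length (5836 peaks), with Sox17 in F9+RA cells (filled, 12687 sites, bars are exact 95% counting intervals) and without (hatched, 19265 sites), for lines of lysine proteins in blue and of glutamate proteins in red. The Sox2KE line stands out with 23.7% and 30.0% of the sites with Sox17, and Sox2 replicate B is the only lysine line library whose filled bar is the taller.

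The log2 ratio of the Oct4 share with Sox17 over that without was 1.06 ± 0.72 in the glutamate lines (SD, n = 3) and -0.14 ± 0.38 in the lysine lines (SD, n = 4). The difference of 1.20 had an exact two-sided permutation p of 0.114 (adjusted 0.190), where the smallest possible was 0.0571, and the groups overlapped: 0.41 in Sox2 line B exceeded 0.28 in the Sox17 line. Sites with Sox17 were held by the 7 Oct4 lists 4.44 percentage points more often on average, with 4 of 7 lists higher (exact two-sided sign-flip permutation p = 0.312, adjusted 0.391). With whole lists all 7 were higher, between 68.2% and 90.0% with Sox17 and between 46.2% and 81.0% without, where the same lists held between 47.5% and 72.0% of all peaks, a mean difference of 17.4 points (exact two-sided sign-flip permutation p = 0.0156, the smallest possible), while among the 10000 strongest Oct4 F9+RA peaks it was -7.03 points (exact permutation p = 0.328).

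For the Oct4 lists the same description was made. Oct4 of the glutamate lines held more of the sites that moved up, with 25.6% and 31.3% in the Sox2KE line against 20.2% and 27.6% of those that moved down, and 20.6% against 18.6% in the Sox17 line. Oct4 of the lysine lines held fewer, with 11.3% and 18.4% in the Sox2 line against 17.3% and 19.0%, and 12.6% and 13.3% in the Sox17EK line against 19.6% and 18.1%. The log2 ratio was 0.22 ± 0.10 (SD, n = 3) and -0.44 ± 0.27 (SD, n = 4). For the same reason as for the Sox lists, no test is given.

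Oct4 presence in ES cells was read for some of the classes beside that over all 39768 peaks, in whole lists. Of the 218 sites with both Sox17 lists and no lysine list, Oct4 of the Sox17 line held 95.4%, against 54.9% of all peaks. The other 6 Oct4 libraries lay nearer to all peaks, with 71.1% and 52.3% in the Sox2 line against 67.6% and 47.5%, 79.8% and 64.7% in the Sox17EK line against 72.0% and 59.3%, and 75.7% and 66.1% in the Sox2KE line against 61.2% and 49.6%. These 6 held more of the full set of kept sites with Sox17 than of the 218. Their shares of the full set were 87.2% and 68.2% (Sox2 line), 90.0% and 78.1% (Sox17EK line) and 84.1% and 77.1% (Sox2KE line). Oct4 of the Sox17 line held 74.1% of the full set. Of the 29 lysine sites, Oct4 of the Sox2KE line held 44.8% and 31.0%, below its shares of all peaks, and the other 5 libraries held between 89.7% and 100%, above theirs. Of the 1191 sites in no ES Sox list, the 7 libraries held between 6.38% and 39.8%, each below its share of all peaks. Each class was chosen by Sox peaks of the same lines, so the choice of sites and the Oct4 shares cannot be told apart.

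Chromosome 12 carried the largest number of the sites. Sox17 lay at 49.9% of its kept Oct4 sites, while on the other 19 chromosomes the share ran from 32.5% (chromosome 1) to 42.8% (chromosome 8). It held 1138 sites, 8.97% of all, against 7.58% of the 39768 peaks. The share was uneven along the chromosome, with 61.4% between 110 and 120 Mb (328 sites with Sox17), 51.3% between 100 and 110 Mb (356 sites) and 53.4% between 80 and 90 Mb (219 sites), against 26.7% between 10 and 20 Mb (20 sites) and 20.9% between 40 and 50 Mb (9 sites). On chromosome 12, 61.3% of the sites moved up in Oct4 rank with RA, and without it 65.6% did. Without chromosome 12 the log2 ratio difference of the Sox lists by residue remained 1.66 (exact two-sided permutation p = 0.0286).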

How the data were processed

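The deposited files hold 1 peak list per library, giving the position of each peak, its name and a number, which is called a score here. The authors' score has no stated scale; the lowest score of every list lies close to 50, and a scale of 10 times −log10 p is an inference from this. Peak names carry the prefix of MACS. The build is mm9, per the submitters' processing notes, and the sources used here do not give the aligner, the caller's settings or its control. The depth of the libraries is unknown, as the files show list lengths alone. Start and end are in bp (another unit than a measurement, as deposited); starts were taken to count from 0 and are printed counting from 1.

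Ranks were taken within whole lists by score, with ties at their mean rank, and the strongest overlapping peak stood for a site. ES lists were cut to their 5836 strongest peaks, the length of the shortest. Groups came from the labels. Libraries were compared by exact two-sided permutation or sign-flip tests, with Benjamini-Hochberg adjustment over 5 planned tests. The counting and the tests were tested on simulated data. No label calls replicates A and B separate cultures; their spread, on which the p-values rest, may therefore be technical. The sites and rules were chosen with earlier results of these data known, among them that glutamate lists share more Sox17 F9+RA sites, so this direction is no independent support.

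Regions were named by rule: 5 each for the best mean Oct4 rank in both F9 lists, the largest move up, the largest move down, presence in all 8 ES Sox lists (the 5 with the best mean Oct4 rank), both Sox17 ES lists and no lysine list (best Sox17 rank) and all lysine and no glutamate lists (best mean Oct4 rank), and 3 on each side of the score at which the set ended. Ties went by Sox17 F9+RA score, then position; 4 of the 5 sites in all 8 ES Sox lists came from a tie of 19. Sites on chromosome 18 were counted and not named. Gene names, sequences and the planned motif search were left out, because the tables used here belong to another build. The 2 mock libraries were not analysed here. Alternatives covered the matching rule, the number of peaks, a score minimum, list length, single libraries, a replicate block and, for shares with minus without Sox17, 1 value per line. Python 3.11.15, NumPy 2.4.6, pandas 2.3.3, SciPy 1.17.1 and matplotlib 3.10.9 were used.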

Additional observations from a re-analysis of the deposited data

How the results depend on the processing

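The 12687 sites became 6556 with midpoints within 200 bp, 5851 among the 10000 strongest Oct4 F9+RA peaks and 5679 with scores of at least 100. Over the same 3 settings the median change of Oct4 rank was 3260, 2652 and 1728, with 71.7%, 79.6% and 68.5% moving up. With overlap of 50% of the shorter interval they were 2187 and 66.5%, with all Oct4 F9+RA peaks 1114 and 57.9%, with rank as a percent of the list 6.50 points and 77.7%, with the F9 rank also limited 1432 and 62.2%, and with 1 F9+RA peak per F9 peak 2512 and 68.8%.

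The difference of ES Sox shares by residue, 9.25 points, lost an exact permutation p under 0.05 with midpoints (5.31, p = 0.0571), the 10000 strongest (12.3, p = 0.0857), whole ES lists (13.3, p = 0.486), the 2000 strongest ES peaks (3.30, p = 0.0857), V5 lists alone (6.27, p = 0.133) and without Sox2KE (12.2, p = 0.133). Leaving out each library gave 7.11 to 11.9. The log2 ratio difference of 1.66 lost it with V5 lists alone (1.49) and without Sox2KE (1.83, exact permutation p = 0.133 for each), and leaving out each library gave 1.56 to 1.85. With 1 library left out the exact permutation p was 0.0571, the smallest those designs can give. With a replicate block (permutation within letters) the values were 9.25 and 1.66, with an exact permutation p of 0.0556, the smallest possible. Letters did not pair the libraries: between proteins, the A minus B differences over sites correlated between -0.12 and 0.03.

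The exact permutation p of the Oct4 log2 ratio difference stayed above 0.05 in each of its 17 alternatives. That was fixed by the design, since 3 against 4 libraries cannot go below 0.0571, nor can fewer libraries. The difference itself was 0.25 (whole lists) to 1.59 (without the Sox17 line). The shares with minus without Sox17 turned to -6.37 (Sox) and -7.03 (Oct4) among the 10000 strongest peaks. The Sox value was -1.10 for V5 lists alone and 0.282 to 3.30 when each library was left out, with 0.718 without Sox2KE replicate B and 1.09 without Sox17 replicate B. The Oct4 value was 17.4 with whole lists (exact permutation p = 0.0156), and 1.73 to 5.95 when each library was left out, the lowest without Sox2KE line B. The causes were not tested. Alternatives on chromosome 12, F9 rank, split peaks, V5 lists and Sox2KE were chosen after seeing the data. Peak lists hide signal below the threshold, so lack of a peak is not lack of binding.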
